A study of Castanea mollissima with 18 samples.

Results

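The genes described here were detected in every somatic embryo library of Chinese chestnut (Castanea mollissima) and stood clearly lower in every callus library. Of 33991 gene IDs, 175 belonged to this set. Expression was measured by RNA sequencing of total RNA in 12 libraries labelled somatic embryo and 6 labelled callus, which the study set side by side to compare expression between the tissues. The labels give the species, the tissue and a number for each library, and name no stage, line, culture, medium or treatment for either tissue. The sample titles also hold short codes that are not explained. Apart from the code for the tissue, these are the same in every library. Values were FPKM, fragment counts scaled to the length of a gene model and to the mapped total of its library. Read depth is unknown, as the deposited table holds no counts, and the summed FPKM of a library lay between 950919 and 1067585.

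Callus is a mass of dividing plant cells without organs, kept in culture. Somatic embryos arise from such cells or from other body cells without fertilisation and pass through stages that resemble those of a seed embryo. In plants the forming and maturing of embryos is known to involve transcription factors of the LEC1, LEC2, FUS3, ABI3 and BABY BOOM types. Maturing embryos are known to lay down storage proteins and oil. The deposited table pairs none of its IDs with a name or a function, so members are given by ID, their roles are not stated, and neither tissue could be checked against marker genes.

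The members were chosen by their own levels in these 18 libraries. On the scale log2(FPKM + 1), a gene with at least 1 FPKM in 6 or more libraries was taken when its lowest somatic embryo library stood at least 1 above its highest callus library. This distance is the gap. Of 20365 genes that passed the limit of 1 FPKM, 210 (1.03%) met the gap. Genes in which a single trio of close libraries stood at least 1 above or below the other 15 libraries were then left out, which took away 35 genes and left 175 (0.859%). For comparison, the ranges of the tissues did not overlap, with somatic embryo higher, in 1294 genes (6.35%), and 1084 of these had a gap under 1. Genes marked by a single trio were kept in both of these counts, unlike in the members. The contrast between the tissues chose the members, so it is described here without a test, and members are not replicates of each other. A difference in bulk tissue can come from fewer cells of a kind or from less RNA per cell, and these cannot be told apart.

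The trios are not a label. They are sets of 3 libraries that resembled each other in these data: somatic embryo 1, 4 and 12, somatic embryo 2, 3 and 11, somatic embryo 5, 6 and 7, somatic embryo 8, 9 and 10, callus 1, 2 and 6, and callus 3, 4 and 5. Whether a trio is a stage, a line, a culture or repeats of a sample is not stated in the labels. Values over trios are therefore given as levels and counts, beside the same over all tested genes.

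Together the 175 members took a small share of the transcripts, with 0.624% to 1.69% of the summed FPKM in any somatic embryo and 0.0802% to 0.116% in any callus. The means were 1.17% ± 0.371 (SD, n = 12) and 0.0962% ± 0.0166 (SD, n = 6). Within somatic embryo, libraries 5, 6 and 7 held the lowest shares, at 0.624%, 0.633% and 0.634%, while the other 9 held at least 1.10%. Somatic embryo 4 held the highest. In callus, libraries 3, 4 and 5 held 0.108% to 0.116% and libraries 1, 2 and 6 held 0.0802% to 0.0835%. Without the 3 members of highest mean level the shares were 0.866% ± 0.287 (SD, n = 12) and 0.0514% ± 0.00596 (SD, n = 6). In callus these 3 genes thus carried more of the summed level of the members than in somatic embryo.

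The median member had 9.45 to 29.8 FPKM, depending on the somatic embryo library, and only 0.26 to 0.74 FPKM in callus. The median of all tested genes exceeded the median member in callus and in somatic embryo 5, 6 and 7, and lay below it in the other 9 somatic embryo libraries. Members at 10 FPKM or more numbered 85 to 141 per somatic embryo library but 7 to 10 per callus library. The mean level over the somatic embryo libraries was under 10 FPKM in 31 members, 10 to 50 FPKM in 99, 50 to 100 FPKM in 18 and 100 FPKM or more in 27. Of all tested genes, 9.66% had a mean of 100 FPKM or more. The median of this mean was 23.2 FPKM over the members and 15.0 FPKM over all tested genes. As the rule asks for somatic embryo values above callus, these levels describe the choice.

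**Figure D1:**
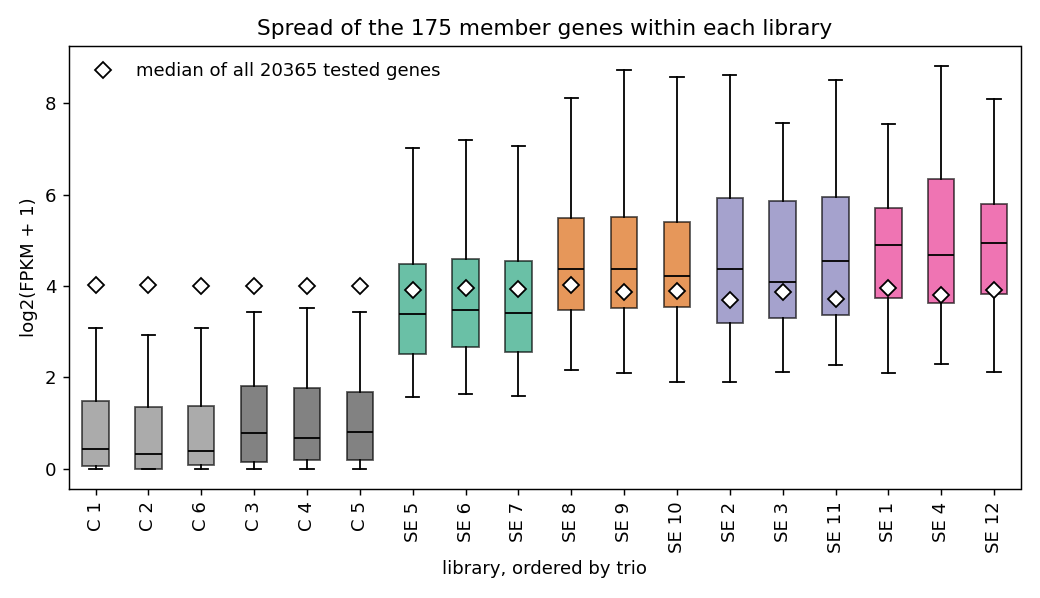
Levels of the 175 members in each library on the log2(FPKM + 1) scale, with C for callus and SE for somatic embryo; boxes span the quartiles with the median as a line, whiskers the 5th to the 95th percentile, and colours mark the trios. Diamonds give the median of all 20365 tested genes. Callus boxes lie low throughout, and somatic embryo 5, 6 and 7 lie below the other 9 somatic embryo libraries.

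Callus did not lack all members. In 90 members (51.4%) every callus library was under 1 FPKM, a state found in 4.41% of all tested genes, and in 21 members every callus library was under 0.1 FPKM. In 43 members every callus library reached 1 FPKM, and 42 members lay on both sides of that limit. Since the rule asks for low callus values, these counts describe the choice and support nothing further. The table lists 6 members at 0 in all 6 callus libraries. The most abundant of these was Cm10G01613.gene, at a mean of 191 FPKM and between 10.3 and 696 FPKM over the 12 somatic embryo libraries. The mean of the other 5 ranged from 4.54 FPKM in Cm11G02074.gene to 23.2 FPKM in Cm09G00419.gene. No fold is given for these 6, as the callus value is listed as 0.

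The opposite end of the set holds members that were abundant in both tissues. In 3 members every callus library exceeded 100 FPKM, namely Cm01G01619.gene, Cm04G02445.gene and Cm07G00885.gene, of which the last pair was picked out after the values were seen. Cm01G01619.gene, the member with the highest mean, measured 1211, 1090.5 and 1525 FPKM in libraries 1, 4 and 12 of somatic embryo, at 1239, 864 and 1251 FPKM in 2, 3 and 11, at 945, 962 and 988 FPKM in 5, 6 and 7, and at 1848, 2192 and 2141 FPKM in 8, 9 and 10. Callus 1, 2 and 6 had 204, 207 and 206 FPKM, and callus 3, 4 and 5 had 370.4, 342 and 338 FPKM. Both callus trios were tight and differed from each other, and the gap of 1.22 lay between somatic embryo 3 and callus 3. The means were 1355 ± 467 FPKM (SD, n = 12) and 278 ± 80.1 FPKM (SD, n = 6). Cm04G02445.gene, at 841 ± 363 FPKM (SD, n = 12) and 158 ± 25.8 FPKM (SD, n = 6), was likewise highest in somatic embryo 8, 9 and 10, at 1182, 1527 and 1432 FPKM. Cm07G00885.gene was flatter. Its somatic embryo mean was 482 ± 73.1 FPKM (SD, n = 12), with libraries from 396 to 627 FPKM, and callus had 158 ± 8.77 FPKM (SD, n = 6).

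The gap had a median of 1.44 over the members and reached 1.5 in 82, 2 in 37, 3 in 10 and 4 in 4. The widest was 5.21, in Cm01G01878.gene. This gene was present in every somatic embryo and had at most 0.1 FPKM in any callus library. It measured 357, 469.7 and 424 FPKM in libraries 1, 4 and 12 of somatic embryo, at 205, 183 and 125 FPKM in 2, 3 and 11, at 63.7, 63.8 and 85.6 FPKM in 8, 9 and 10, and at 39.6, 42.4 and 42.7 FPKM in 5, 6 and 7. The 4 trios of somatic embryo did not overlap in this gene. Callus 1 and 6 had 0.1 FPKM, callus 5 had 0.04 FPKM and callus 2, 3 and 4 were listed at 0.

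Cm05G01891.gene came next, with a gap of 5.06. It measured 469, 102 and 450.2 FPKM in libraries 2, 3 and 11 of somatic embryo and at 111, 91.9 and 289 FPKM in 1, 4 and 12, so both trios were wide. Somatic embryo 8, 9 and 10 had 143, 156 and 142 FPKM, and somatic embryo 5, 6 and 7 had 64.7, 62.9 and 69.1 FPKM, the lowest of the 12. Callus values ran from 0.05 to 0.92 FPKM. The other members with a gap of 4 or more were Cm06G01701.gene at 4.47, which was named after its values were seen, and Cm09G00420.gene at 4.09.

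Close to the limit of the rule, the gaps on its 2 sides differed little. The 2 genes just inside had lower mean FPKM, in somatic embryo and in callus, than the 2 just outside. Just inside were Cm07G00058.gene, with a gap of 1.00 between 1.34 FPKM in somatic embryo 7 and 0.17 FPKM in callus 1, and Cm02G00368.gene, with 2.25 FPKM in somatic embryo 4 against 0.62 FPKM in callus 5. Just outside, among genes not marked by a single trio, were Cm07G00796.gene, with 16.4 FPKM in somatic embryo 5 against 7.76 FPKM in callus 1 (gap 0.99), and Cm06G00384.gene, with 6.93 FPKM in somatic embryo 9 against 3.01 FPKM in callus 3 (gap 0.98).

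The members did not have a flat level among somatic embryos. The range of the 4 trio means had a median of 2.02 on the log2 scale over the members, against 0.97 over all tested genes and 1.37 over the 1084 genes with a gap under 1. Under 1, less than a doubling of FPKM + 1 from the lowest to the highest trio, lay 15 members (8.57%) against 52.0% of all tested genes. A range of 3 or more was found in 33 members (18.9%) and in 5.38% of all tested genes. The SD of the 4 trio means had a median of 0.89 over the members and 0.43 over all tested genes. The SD among the 3 libraries of a trio had a median of 0.12 in somatic embryo 5, 6 and 7, 0.25 in 8, 9 and 10, 0.46 in 2, 3 and 11 and 0.51 in 1, 4 and 12, against 0.09, 0.15, 0.25 and 0.26 over all tested genes. As the trios were formed from close libraries of these data, a narrower spread within than between them follows from that choice.

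**Figure D2:**
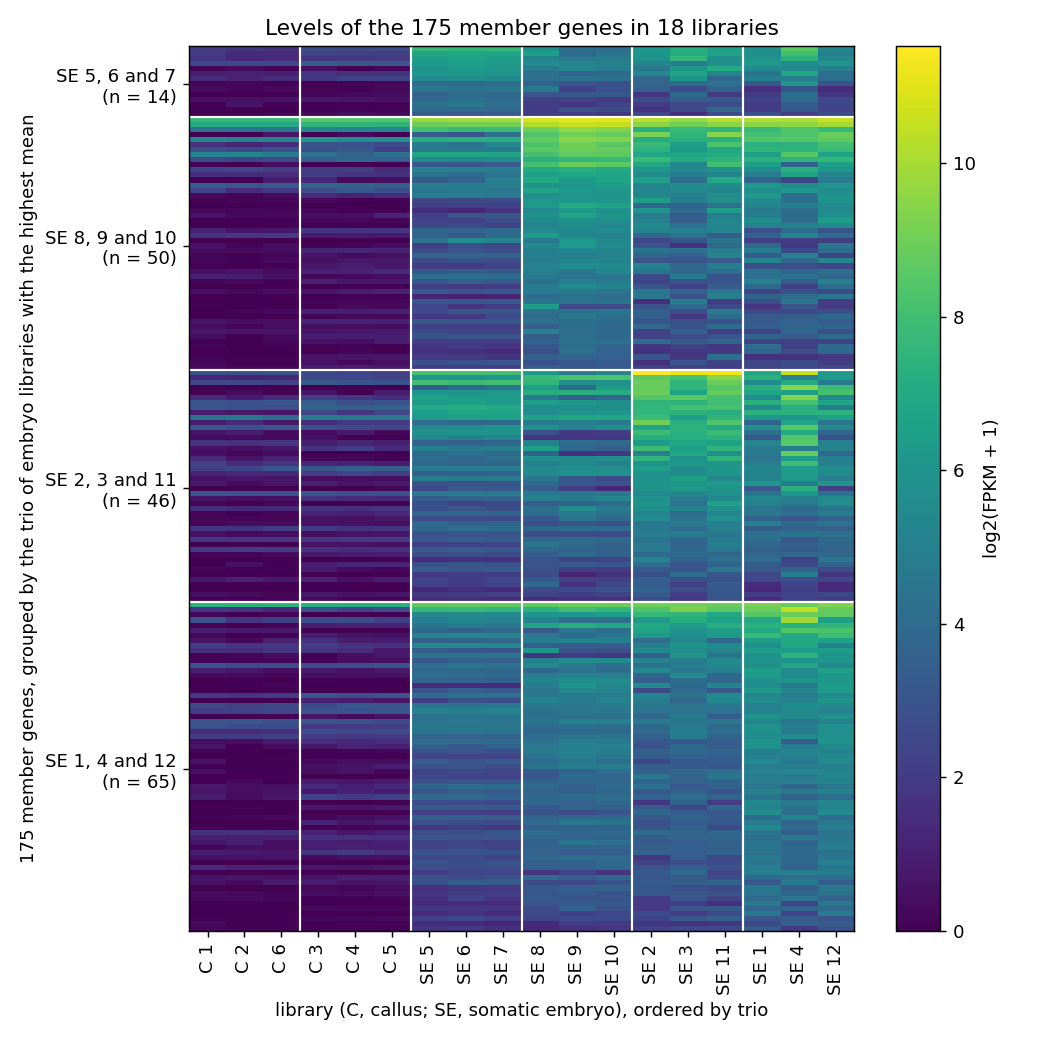
Levels of the 175 members (rows) in the 18 libraries (columns) as log2(FPKM + 1), with white lines between trios; C is callus and SE is somatic embryo. Rows are grouped by the trio of somatic embryo libraries with the highest mean and sorted by mean FPKM within a group, so the bright block of each group follows from the grouping; somatic embryo 4 is bright in many rows of the group highest in 2, 3 and 11.

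Somatic embryo 5, 6 and 7 were the low end of the set. Their mean was the lowest of the 4 trios in 105 of 175 members (60.0%), against 17.9% of all tested genes and 43.9% of the 1084 genes with a gap under 1. Somatic embryo 8, 9 and 10 were lowest in 37 members (21.1%), against 26.5% of all tested genes. For 2, 3 and 11 the count was 21 (12.0%, against 36.5%), and for 1, 4 and 12 it was 12 (6.86%, against 19.1%). In 65 members (37.1%) all 3 of somatic embryo 5, 6 and 7 lay below all other 9 somatic embryo libraries, a pattern found in 6.94% of all tested genes. The rule used the lowest somatic embryo library of each gene, so these counts describe the chosen genes and support nothing further. Over all tested genes the median level of this trio was 3.94 on the log2 scale, beside 3.93 in 8, 9 and 10, 3.89 in 1, 4 and 12 and 3.74 in 2, 3 and 11. Without callus 3, 4 and 5 the rule takes 745 genes, and in 38.8% of these somatic embryo 5, 6 and 7 had the lowest mean.

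The high end was shared among the other 3 trios. Somatic embryo 1, 4 and 12 had the highest mean in 65 members (37.1%), 8, 9 and 10 in 50 (28.6%), 2, 3 and 11 in 46 (26.3%), and 5, 6 and 7 in 14 (8.00%). Over all tested genes these shares were 27.2%, 32.9%, 14.1% and 25.8%. The share of 8.00% was 15.8% without somatic embryo 9 and 17.4% without callus 3, 4 and 5. The commonest profile, in 45 members, ran from lowest in somatic embryo 5, 6 and 7 to highest in 1, 4 and 12. It was followed by 35 members from 5, 6 and 7 to 8, 9 and 10 and 25 from 5, 6 and 7 to 2, 3 and 11. These profiles were not counted over all tested genes, so the 3 counts are a description only. The median member measured 9.69 FPKM in libraries 5, 6 and 7 of somatic embryo, at 19.98 FPKM in 8, 9 and 10, at 20.8 FPKM in 2, 3 and 11 and at 31.1 FPKM in 1, 4 and 12. The rule itself took away 8 genes in which somatic embryo 1, 4 and 12 stood above all others, 2 such genes for 8, 9 and 10 and 1 for 2, 3 and 11. With the 35 single-trio genes kept, the share lowest in 5, 6 and 7 was 58.6% of 210.

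**Figure D3:**
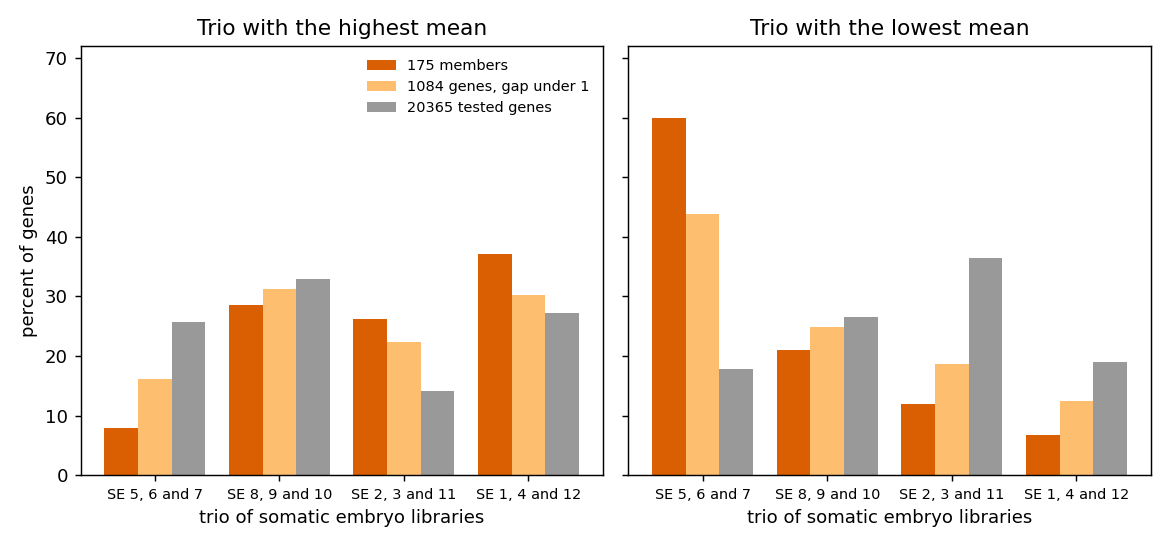
Percent of genes in which each trio of somatic embryo libraries (SE) had the highest mean (left) and the lowest mean (right), for the 175 members, the 1084 genes with no overlap and a gap under 1, and all 20365 tested genes. The tallest bar is the 60.0% of members lowest in somatic embryo 5, 6 and 7, and the shortest bar of the members on that side is the 6.86% lowest in 1, 4 and 12.

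Single members show how far the profiles part. Cm04G01954.gene was the most even, with trio means within 0.29 of each other. It measured 21.6, 11.9 and 16.8 FPKM in libraries 1, 4 and 12 of somatic embryo, at 11.7, 16.4 and 11.9 FPKM in 2, 3 and 11, at 15.0, 14.9 and 11.4 FPKM in 5, 6 and 7, and at 13.9, 15.6 and 17.0 FPKM in 8, 9 and 10. Its trios of somatic embryo overlapped throughout, whereas callus parted into 0.9, 0.31 and 0.73 FPKM in libraries 1, 2 and 6 and 3.73, 2.72 and 3.84 FPKM in 3, 4 and 5.

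Cm01G02263.gene was the least even, with a range of 5.95, and also had the second highest mean, 852 ± 1106 FPKM (SD, n = 12). It measured 2949, 2301 and 2406 FPKM in libraries 2, 3 and 11 of somatic embryo, at 273, 267 and 250.2 FPKM in 5, 6 and 7, and at 70.6, 24.6 and 36.6 FPKM in 8, 9 and 10. Somatic embryo 4 had 1463 FPKM and stood far from its trio, as somatic embryo 1 and 12 had 108 and 68.8 FPKM. Callus lay between 3.49 and 6.67 FPKM.

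The member farthest above the other trios in somatic embryo 1, 4 and 12 was Cm06G00269.gene, at 131, 336 and 297 FPKM. It had 106, 55.5 and 82.1 FPKM in 2, 3 and 11, 14.4, 11.9 and 14.9 FPKM in 5, 6 and 7, and 8.17, 22.8 and 16.7 FPKM in 8, 9 and 10. The 2 upper trios did not overlap with each other, and the 2 lower ones did. Its callus trios had the less usual order, at 1.04, 0.73 and 0.72 FPKM in libraries 1, 2 and 6 and 0.05, 0.06 and 0.09 FPKM in 3, 4 and 5.

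Cm01G00794.gene led in somatic embryo 8, 9 and 10, at 275, 465 and 395 FPKM. It fell to 7.93, 7.65 and 9.11 FPKM in 5, 6 and 7. Somatic embryo 1, 4 and 12 had 89.97, 11.0 and 90.1 FPKM, with library 4 again apart, and somatic embryo 2, 3 and 11 had 121, 40.5 and 262 FPKM. Callus was listed at 0 in libraries 2, 3, 4 and 5, with 0.03 FPKM in callus 1 and 0.43 FPKM in callus 6.

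Members highest in somatic embryo 5, 6 and 7 were few, and their mean embryo levels ran from 4.89 to 127 FPKM with a median of 23.6. Cm05G02376.gene stood there at 17.9, 22.0 and 16.6 FPKM and at 2.43 to 9.2 FPKM in the other 9 somatic embryo libraries. It was 1 of 2 members in which all 3 lay above the other 9, a pattern seen in 11.4% of all tested genes. The second was Cm03G00935.gene, named after its values were seen, at 8.47, 7.34 and 8.25 FPKM against 1.82 to 5.99 FPKM.

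**Figure D4:**
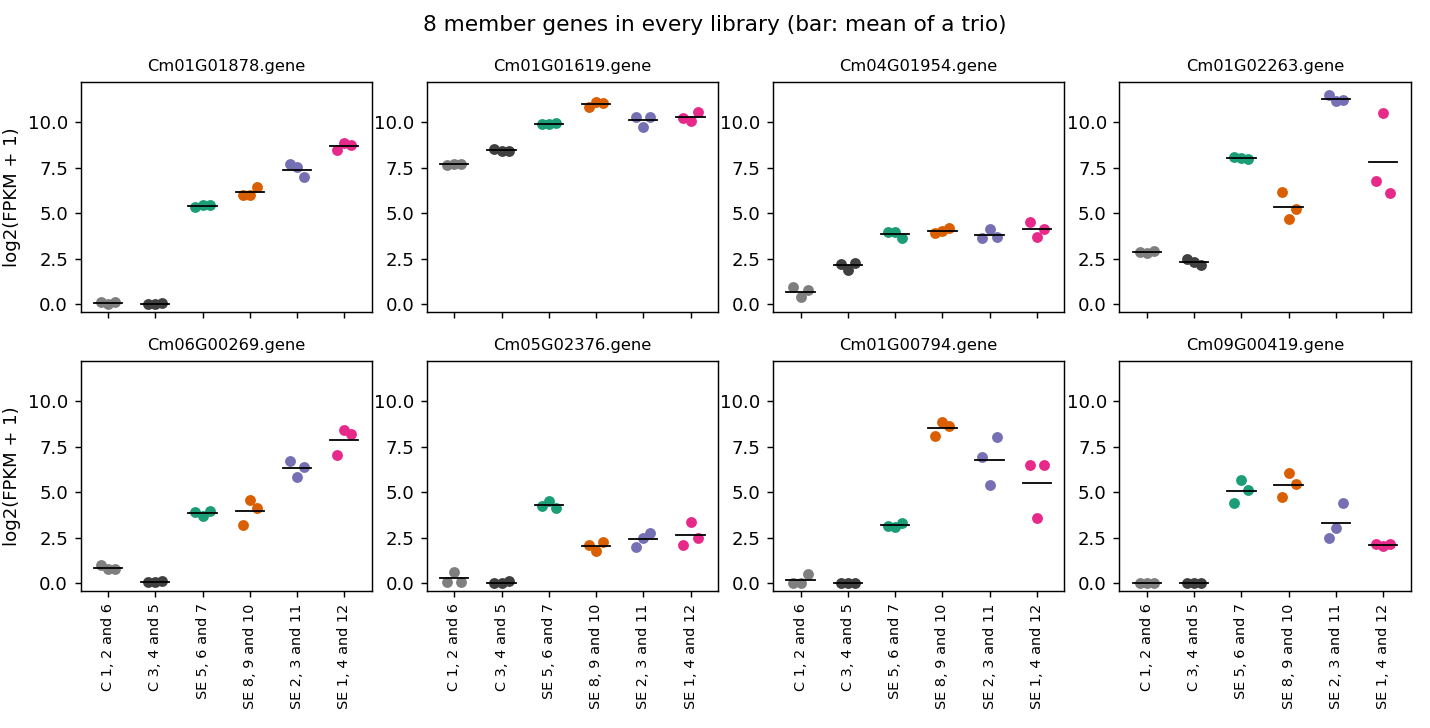
Levels of 8 members in every library as log2(FPKM + 1), by trio, with C for callus and SE for somatic embryo; points are libraries and bars are the mean of the 3 libraries of a trio. Cm01G01878.gene steps up from trio to trio, Cm04G01954.gene is level among somatic embryos, and in Cm01G02263.gene somatic embryo 4 lies far above somatic embryo 1 and 12.

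In 2 trios the libraries themselves were often apart. The 3 libraries spanned at least 1 on the log2 scale in 85 members (48.6%) for somatic embryo 1, 4 and 12 and in 77 (44.0%) for 2, 3 and 11, against 19.5% and 16.0% of all tested genes. For 8, 9 and 10 the count was 27 (15.4%, against 6.14%) and for 5, 6 and 7 it was 3 (1.71%, against 0.462%). Somatic embryo 4 lay nearer to the mean of somatic embryo 2, 3 and 11 than to the mean of 1 and 12 in 87 members (49.7%), and in 40.5% of all tested genes. A mean over somatic embryo 1, 4 and 12 therefore joins unlike values in many members.

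In callus the members tended to stand higher in libraries 3, 4 and 5. Their mean exceeded that of callus 1, 2 and 6 in 118 members (67.4%), against 52.7% of all tested genes and 72.1% of the 1084 genes with a gap under 1. All 3 lay above all of callus 1, 2 and 6 in 78 members (44.6%) and below in 20 (11.4%), where all tested genes gave 37.5% and 32.2%. The median difference was small, 0.19 on the log2 scale over the members and 0.03 over all tested genes. The rule bears on this count, because it left out 23 genes in which callus 1, 2 and 6 stood at least 1 below every other library. With the single-trio genes kept, callus 3, 4 and 5 had the higher mean in 148 of 210 genes (70.5%). The share also depended on the value added before the logarithm. It was 58.6% with 0.1 added in place of 1 and 56.0% with 0.01, nearer to the 52.7% of all tested genes. The rule then also takes other genes.

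A pair of trios set the gap in many members. The lowest somatic embryo library was 1 of 5, 6 and 7 in 86 members (49.1%), against 12.7% of all tested genes. Leaving out the 6 members at 0 throughout callus, the highest callus library was 1 of 3, 4 and 5 in 121 of 169 members (71.6%), against 53.6% of all tested genes that were above 0 in callus. The number of genes that meet the gap moved most with callus 3, 4 and 5. Read on 15 libraries without callus 3, 4 and 5, the gap was met by 788 genes in place of 210, so 578 genes were kept out by these 3 libraries alone. The 788 genes had a median of 5.96 FPKM there, against 15.0 FPKM for all tested genes. Of the 788 genes, 449 (57.0%) had callus 3, 4 and 5 below every somatic embryo library by any distance, and 210 (26.6%) by at least 1.

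Leaving out somatic embryo trios changed the number less. It was 408 without somatic embryo 8, 9 and 10, 358 without 5, 6 and 7, 260 without 1, 4 and 12 and 242 without 2, 3 and 11, and 285 without callus 1, 2 and 6. Of the 358 genes, 341 (95.3%) still had somatic embryo 5, 6 and 7 above every callus library, so most of those lost there fell short by distance and not by order. Of the 408 genes, 311 (76.2%) had somatic embryo 8, 9 and 10 above every callus library. Somatic embryo 8, 9 and 10 each reached 1 FPKM in 355 of the 408 genes (87.0%), close to the 89.4% of all tested genes that did so. For none of the left-out trios, callus 3, 4 and 5 included, was the share of all tested genes with the same order computed. The counts that held are therefore given without a background and are a description only. These readings share the libraries that were not left out, so they are not independent of each other.

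**Figure D5:**
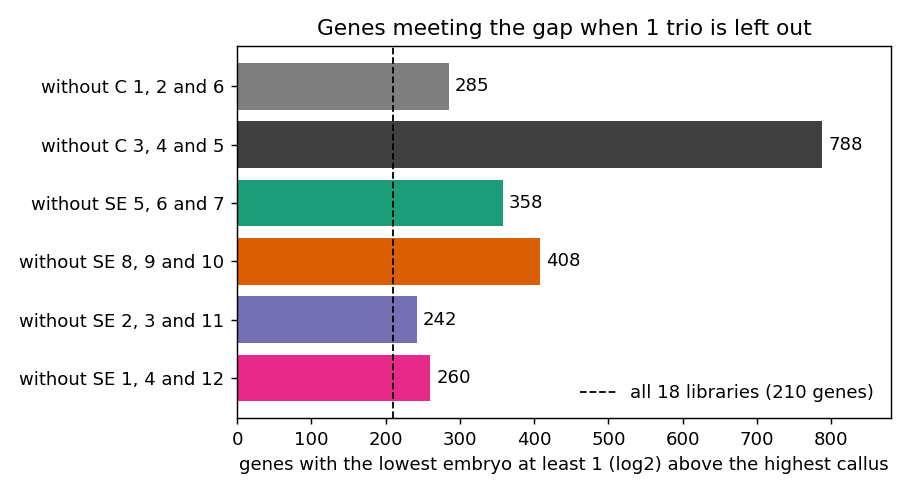
Number of genes whose lowest somatic embryo library stood at least 1 (log2) above the highest callus library when 1 trio of libraries was left out (bars; C is callus, SE is somatic embryo), with the number on all 18 libraries, 210, as a dashed line. Leaving out callus 3, 4 and 5 gave by far the longest bar, 788 genes, and somatic embryo 2, 3 and 11 the shortest, 242.

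Some members had neighbouring ID numbers. Within 10 numbers of another member with the same ID prefix were 28 of 175 members (16.0%), against 9.78% of the 20190 other tested genes. They formed 11 pairs and 2 runs of 3. What the numbers say about position on a chromosome is not stated in the table, and reads shared between similar neighbouring genes were not examined, so the levels of neighbours are uncertain in that respect. By ID prefix the share of tested genes that were members ran from 0.523% (Cm11, 8 genes) to 1.26% (Cm10, 17 genes).

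The members of a run did not need to behave alike. In the run Cm09G00419.gene, Cm09G00420.gene and Cm09G00424.gene the profiles over somatic embryos differed. Cm09G00419.gene was lowest in somatic embryo 1, 4 and 12, at 3.49, 3.09 and 3.53 FPKM, and highest in 8, 9 and 10, at 25.8, 64.5 and 42.2 FPKM. Cm09G00424.gene was highest in 1, 4 and 12, at 27.3, 11.5 and 21.3 FPKM, and lowest in 5, 6 and 7, at 5.7, 5.51 and 5.69 FPKM. Cm09G00420.gene had 22.8 to 132 FPKM in somatic embryo and at most 0.4 FPKM in callus.

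The second run of 3, named because it tied in length, was more uniform. Cm12G00140.gene, Cm12G00141.gene and Cm12G00142.gene were all highest in somatic embryo 8, 9 and 10, at 19.6, 15.7 and 15.8 FPKM, 9.98, 8.43 and 9.27 FPKM, and 106, 70.01 and 67.0 FPKM. In callus 3, 4 and 5 they had 1.15, 1.15 and 1.12 FPKM, 0.83, 0.9 and 0.74 FPKM, and 5.15, 8.44 and 6.12 FPKM. Callus 1, 2 and 6 lay lower in each, at 0.37 to 0.55 FPKM, 0.11 to 0.23 FPKM and 1.75 to 4.03 FPKM.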

How the data were processed

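The authors deposited the values as FPKM in a single table of 33991 gene IDs and 213 sample columns. Only 18 columns carry the title of a labelled library; the other 195 were not used here. Per the submitters' processing notes, FastQC 0.11.9, Trimmomatic and STAR 2.7.10b were used; which program gave FPKM, on which build and annotation, is not given in the sources used here. FPKM is relative to the library total, so abundant genes that rise push the rest down.

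From these values log2(FPKM + 1) was computed, genes with at least 1 FPKM in 6 of 18 libraries were kept (20365), and the member rule was applied (Python 3.11.15, NumPy 2.4.6, pandas 2.3.3); the rule was tested on simulated data. The limit of 1 FPKM removed no member, since without it the rule also gave 175 genes. The log scale with 1 added understates differences of low genes. Groups come from the tissue label. No p-value was computed, because the contrast chose the members and the trios were found in the data. Differences between libraries may be technical or may be unlabelled stages.

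The members, the trios and the lists were chosen with earlier results of these data known. Genes were named by rule: the widest gaps, those at the limit, the highest means, the most and the least even, the leader of each somatic embryo trio, the widest gap among single-trio genes, and the longest run in ID order. Gene lists by name were not run, as 0 IDs had a name. Alternatives were smaller pseudocounts (0.1, 0.01), the limit of 1 FPKM dropped or replaced by a mean of 5 FPKM, 3 scalings, other gaps, and leaving out libraries or trios. Where 1 callus trio was left out, the single-trio rule was applied to somatic embryo trios alone, since the other callus trio is then below by construction.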

Additional observations from a re-analysis of the deposited data

Results flagged for a closer look

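Callus values (6 libraries) were examined for a single library far from the rest in 21 measures, some of which could be singled out by chance. In 3 named members 1 callus library stood apart. Cm07G00058.gene had 0.17 FPKM in callus 1 and at most 0.04 FPKM in the others. Cm05G02376.gene had 0.56 FPKM in callus 2 and at most 0.08 FPKM in the others, and Cm01G00794.gene had 0.43 FPKM in callus 6 and at most 0.03 FPKM in the others. All 3 values are under 1 FPKM, and each is the highest callus value of its gene. Each therefore sets the callus side of the gap. The gap was 1.00 in Cm07G00058.gene, 1.14 in Cm05G02376.gene and 2.60 in Cm01G00794.gene. The 12 somatic embryo libraries were too many for this check.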

How the results depend on the processing

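The number of members, 175, was 161 to 202 when 1 library was left out, 158 to 204 with the other filters and scalings, and 210 with single-trio genes kept; with median-of-ratios scaling all 175 were among 204. It was 278 with a pseudocount of 0.1 and 293 with 0.01, of which 139 and 133 were among the 175. It was 336 with a gap of 1.5-fold, 37 with a gap of 2, 1116 with any gap (single-trio genes left out), and 1362 for the median somatic embryo trio against the higher callus trio. Without somatic embryo 5, 6 and 7 it was 293, without 8, 9 and 10 it was 316, without callus 1, 2 and 6 it was 269, and without callus 3, 4 and 5 it was 745. The difference in summed share, 1.08 percentage points, was 1.59 with quantile normalization, 1.65 with median-of-ratios scaling, and 0.972 to 1.55 when 1 library was left out, the highest without somatic embryo 3. It was 1.48, 1.65 and 2.705 without somatic embryo 2, 3 and 11, 5, 6 and 7, and 8, 9 and 10, and 2.16 and 4.95 without callus 1, 2 and 6 and callus 3, 4 and 5; the rule then also takes other genes.

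The share of members highest in somatic embryo 5, 6 and 7, 8.00%, was 12.6% with a pseudocount of 0.01, 17.4% without callus 3, 4 and 5, and 15.8%, 15.5% and 24.7% without somatic embryo 1, 4 and 12, 2, 3 and 11, and 8, 9 and 10. It was 6.15% to 15.8% when 1 library was left out, the highest without somatic embryo 9. The share highest in 2, 3 and 11, 26.3%, was 42.1% without 1, 4 and 12, where fewer trios compete. The share lowest in 5, 6 and 7, 60.0%, ran from 53.5% to 68.5% over the settings run except the one without callus 3, 4 and 5 (38.8%). Neighbours in ID order, 16.0%, were 4.00% at a distance of 1 and 29.1% at 20. Of the other tested genes, 9.78% lay within 10 numbers of a member, 1.1% within 1 and 18.2% within 20. Of genes chosen without callus 3, 4 and 5, 57.0% held with any gap in place of 26.6%, and without somatic embryo 5, 6 and 7, 95.3% in place of 58.7%. The causes were not tested. Median-of-ratios scaling moved the median tested gene from -0.12 to 0.02 (log2, somatic embryo minus callus) and the median member from 3.30 to 3.37. Without counts, limits set by depth cannot be stated. No paired analysis was possible, because the labels do not say that callus and embryo libraries of the same number belong together. No test was run.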

Other observations

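The 35 genes that met the gap but were marked by a single trio were of 2 kinds. In 23 of them callus 1, 2 and 6 stood at least 1 (log2) below every other library, and in 1 callus 3, 4 and 5 did. In the other 11 a somatic embryo trio stood above every other library, 1, 4 and 12 in 8 genes, 8, 9 and 10 in 2 and 2, 3 and 11 in 1. The widest gap among the 35, 4.32, belonged to Cm02G02397.gene. It had 329, 131 and 344 FPKM in somatic embryo 1, 4 and 12, 28.6 to 64.7 FPKM in the other 9 somatic embryo libraries, and at most 0.48 FPKM in callus, where libraries 1, 2 and 6 were listed at 0.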
